A study of Mus musculus with 10 samples.

Results

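Augmin is the complex of 8 HAUS proteins that lets a new microtubule grow from the side of an existing one, and its genes, Haus1 to Haus8, are described here in the parts of the mouse egg. The members were all probe sets that the platform annotation assigned to exactly 1 gene, that gene being one of the 8. They came to 12 probe sets of 8 genes, out of 34945 single-gene probe sets of 18193 genes. Haus2 had 4 probe sets, Haus6 had 2 and the other genes had 1 each.

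RNA came from oocytes of B6D2F1 mice, matured in vivo and held at metaphase II of meiosis (MII). All females had received equine gonadotropin and, 48 h later, 5 IU of the human hormone hCG, and the eggs were taken 16 h after that and freed of cumulus cells with hyaluronidase. The spindle-chromosome complex (SCC), removed by microsurgery, was measured on 3 arrays (replicates 1 to 3). The cytoplast, the enucleated egg that stays behind, was measured on 4 arrays (replicates 1 to 4), and the intact MII oocyte on 3 arrays (replicates 2 to 4). No group was genetically altered or treated with a further agent. The labels call the samples biological replicates, but give neither the number of eggs in a sample nor the animals behind it. A p-value therefore covers only the spread from one sample to the next, part of which may be technical. The design asks which maternal transcripts are enriched at the spindle. Because every array received the same amount of amplified cRNA, a value is a relative amount within its sample. A larger share of a transcript in the SCC and a smaller amount of the other RNAs there cannot be told apart.

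Augmin binds along spindle microtubules and recruits the gamma-tubulin ring complex, the template from which microtubules start, through the adaptor Nedd1. This builds up the number of microtubules inside the spindle. Mouse oocytes form their spindle without centrosomes, from several microtubule organising centres and from microtubules that arise around the chromosomes. Its structure divides into a pair of subcomplexes. Haus1, Haus3, Haus4 and Haus5 form the elongated tetramer III, and Haus2, Haus6, Haus7 and Haus8 form tetramer II, which carries the main microtubule-binding part. The arrays measure transcripts of these genes, not the proteins.

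The eggs carried the transcripts of their type. Of 17 oocyte-defining genes with a single-gene probe set, 16 were above background in each group, Figla being the one that was not. Of 19 cumulus and granulosa cell genes, 2 were above it in the SCC and 3 in each of the other groups, and the defining genes Has2, Ptx3, Amh and Fshr were above it on no SCC array. The summed intensity of the cumulus list ran from 1037 to 1239 in the SCC, from 956 to 1153 in the cytoplast and from 1006 to 1145 in the MII oocyte. In these counts a gene was above background in a group if any of its probe sets was above it on any array. The 2 cumulus genes above background on SCC arrays were Kitl and Nr5a2. By its brightest probe set, Kitl was above it on 3 SCC, 2 cytoplast and 1 MII oocyte arrays. Foxl2 was above it on 0 SCC, 1 cytoplast and 2 MII oocyte arrays. The background level of an array was the 95th percentile of 61 probe sets of genes that define other tissues, and it lay at an intensity of 76.3 to 111 (the deposited intensity is in arbitrary linear units). Median intensities of the arrays lay between 15.6 and 16.6.

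Only Haus3 and Haus4, both of tetramer III, were clearly detected. Each was above the background level on 10 of 10 arrays. The probe sets of the other 6 genes were above it on 0 of 10 arrays. Their highest reading was 59.7 (Haus5 on MII oocyte replicate 4). For those 6 genes the arrays therefore give no level clear of that background, and a difference between their groups would be a difference between dim readings. The brightest probe sets of Haus5, Haus6 and Haus8 did exceed the array median on 10 of 10 arrays. The probe sets of different genes bind with different strength, so this is not an order of abundance among the subunits.

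**Figure D1:**
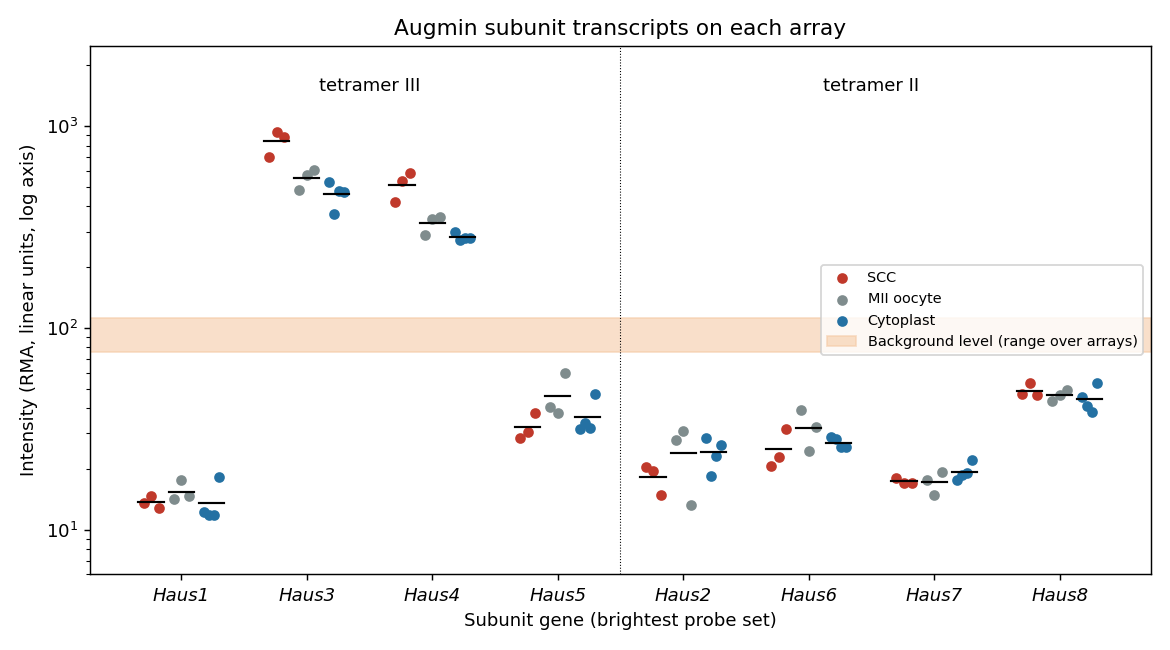
Intensity (logarithmic axis, linear RMA units) of the brightest probe set of each augmin subunit on every array. Points are arrays, black lines are group means, and the shaded band is the range of the background level over the arrays, 76.3 to 111. Haus3 and Haus4 lie above the band in all 3 groups, with the SCC arrays highest, and the other 6 subunits lie below it.

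Haus3 (gene ID 231123), a coiled-coil subunit of tetramer III, had intensities of 701, 938 and 888 on the SCC arrays of replicates 1 to 3. On the cytoplast arrays of replicates 1 to 4 it read 529, 367, 477 and 472. Every SCC array was brighter than every cytoplast array, and the dimmest SCC array was replicate 1. The SCC mean was 843 ± 125 (SD, n = 3), against 461 ± 67.7 (SD, n = 4) for the cytoplast. The SCC level was 1.83-fold higher (log2 difference 0.87, SE 0.16, 95% interval 0.53 to 1.21, limma adjusted p = 0.0104).

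Haus4 (gene ID 219072), another coiled-coil subunit of tetramer III, read 418, 534 and 587 on the SCC arrays. On the cytoplast arrays it read 299, 273, 278 and 280.0, a narrow range. Again the groups did not overlap, and again SCC replicate 1 was the lowest of its group. The SCC mean was 513 ± 86.2 (SD, n = 3), against 282 ± 11.6 (SD, n = 4) for the cytoplast. This was a 1.80-fold higher level in the SCC (log2 difference 0.85, SE 0.13, 95% interval 0.55 to 1.14, limma adjusted p = 0.00642).

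The augmin genes thus divided by detection, and both detected ones rose. Of the 7 genes tested, 2 passed as higher in the SCC (Haus3 and Haus4) and 0 as lower, where 8.02% of all 12714 genes tested were higher and 0.275% lower. At an unadjusted p under 0.05 the members again gave 2 higher and 0 lower, where 18.4% of all genes were higher and 3.89% lower. The median log2 difference was -0.13 over the 7 genes and 0.02 over all genes, and 3 of the 7 differences were positive, as were 54% of those of all genes. Among the 4082 genes that were above background on every array of both groups, 18.4% were higher in the SCC. By arrays that did not overlap, 30.7% of those genes were higher. The same 2 members were higher by that measure.

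Bright probe sets as a whole stood higher in the SCC, so Haus3 and Haus4 were set beside probe sets of like brightness. The 2403 probe sets with a mean log2 intensity between 8 and 10, where both genes lie, had a median log2 difference of 0.30, and 21.3% of them were called higher. Haus3 exceeded that median by 0.57 and Haus4 by 0.54, on the log2 scale. A larger difference than that of Haus3 was found for 9.32% of those probe sets, and a larger one than that of Haus4 for 10.5%. After cyclic loess, which levels such a shift, the log2 differences were 0.62 (adjusted p = 0.0361) for Haus3 and 0.62 (adjusted p = 0.0268) for Haus4. Quantile normalization gave 0.56 for Haus3, which no longer passed (adjusted p = 0.0536), and 0.55 for Haus4, which did (adjusted p = 0.0355). The share of all probe sets called higher fell from 6.74% to 2.12% with cyclic loess and to 1.77% with quantile normalization.

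**Figure D2:**
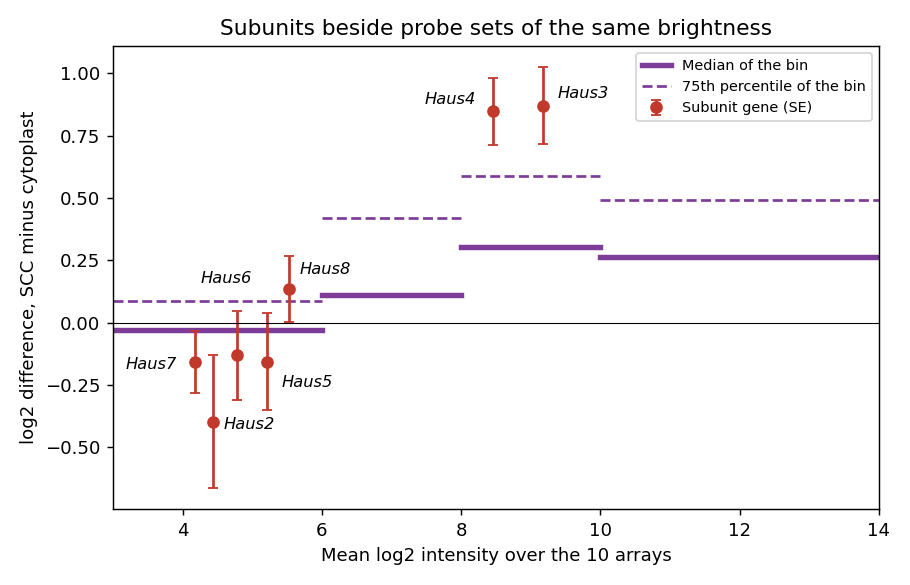
Log2 difference between SCC and cytoplast (vertical axis) against the mean log2 intensity over the 10 arrays (horizontal axis) for the 7 tested augmin genes, with standard errors. Solid and dashed lines are the median and the 75th percentile of all tested probe sets in 4 bins of brightness. Haus3 (0.87) and Haus4 (0.85) lie above the 75th percentile of their bin (0.59), and the 5 dim subunits lie between -0.40 (Haus2) and 0.14 (Haus8).

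The result for Haus4 held whichever array was left out. Its log2 difference then ran from 0.74 to 0.99 and its adjusted p reached at most 0.0458. Haus3 passed with any of the other 8 arrays left out, but not without SCC replicates 2 or 3: without SCC replicate 2 the adjusted p = 0.0658 (log2 difference 0.79), and without SCC replicate 3 the adjusted p = 0.0606 (log2 difference 0.83). Without these arrays the share of all probe sets called higher was 1.14% and 1.02%.

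Of 5 measures of the arrays set against the same groups, none passed an exact test, and 2 came closest. The 95th percentile of intensity was 618, 731 and 788 on SCC replicates 1 to 3 and lay between 521 and 626 on the cytoplast arrays (exact permutation p = 0.0571, two-sided). The log2 difference of the 3′ from the 5′ control probe set of beta-actin, a sign of RNA integrity and of how far amplification reached, was 3.42 ± 0.201 (SD, n = 3) for the SCC, against 4.62 ± 0.687 (SD, n = 4) for the cytoplast (exact permutation p = 0.0571, two-sided). The same measure from the Gapdh control overlapped between the groups, at 2.87 ± 0.48 (SD, n = 3) for the SCC and 3.17 ± 0.556 (SD, n = 4) for the cytoplast (exact permutation p = 0.429, two-sided). The exact permutation p was 0.371 for the median intensity and 0.886 for the spiked hybridisation controls. With 3 against 4 arrays these tests could not go below 0.0286. For the beta-actin measure the SCC arrays read 3.27, 3.65 and 3.34. All lay below the cytoplast arrays, at 5.29, 4.78, 4.74 and 3.66, the last of them narrowly. As for Haus3 and Haus4, these groups thus did not overlap in it. The part of the beta-actin measure in the Haus3 and Haus4 differences was not tested.

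Against the intact oocyte the same 2 genes leaned the same way without passing. Haus3 read 482, 571 and 607 on MII oocyte replicates 2 to 4, all below the dimmest SCC array. The mean was 553 ± 64.5 (SD, n = 3), and the SCC was 1.52-fold above it (log2 difference 0.60, SE 0.17, 95% interval 0.24 to 0.97, adjusted p = 0.172). Haus4 read 290, 348 and 356 on these arrays, again all below the SCC. Its mean was 331 ± 36.1 (SD, n = 3), and the SCC was 1.54-fold above it (log2 difference 0.62, SE 0.14, 95% interval 0.31 to 0.94, adjusted p = 0.124). By limma, 0 of the 7 members passed in this comparison, where 0.0472% of all genes were higher and 0% lower. At an unadjusted p under 0.05, 2 members were higher (Haus3 and Haus4) and 1 was lower (Haus5, below background), where 9.45% of all genes were higher and 3.83% lower. Of the genes above background on every array of both groups, 16.4% had SCC arrays that all lay above the MII oocyte arrays. The comparisons with the cytoplast and with the MII oocyte share the SCC arrays.

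No member passed between the cytoplast and the intact oocyte. By limma 0 of 7 genes passed, where 0% of all genes passed in either direction. At an unadjusted p under 0.05 there were 0 members, where 0.928% of all genes were higher and 3.75% lower. Haus3 was lower in the cytoplast by a log2 difference of -0.27 (95% interval -0.61 to 0.07) and Haus4 by -0.22 (95% interval -0.52 to 0.07), with overlapping arrays in both cases. Both differences were near the median of probe sets of the same brightness, -0.19. The order of the group means was therefore SCC, MII oocyte, cytoplast for both genes. The lower neighbours in that order, MII oocyte and cytoplast, overlapped, and the SCC stood apart from both without passing the adjusted test against the MII oocyte.

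**Figure D3:**
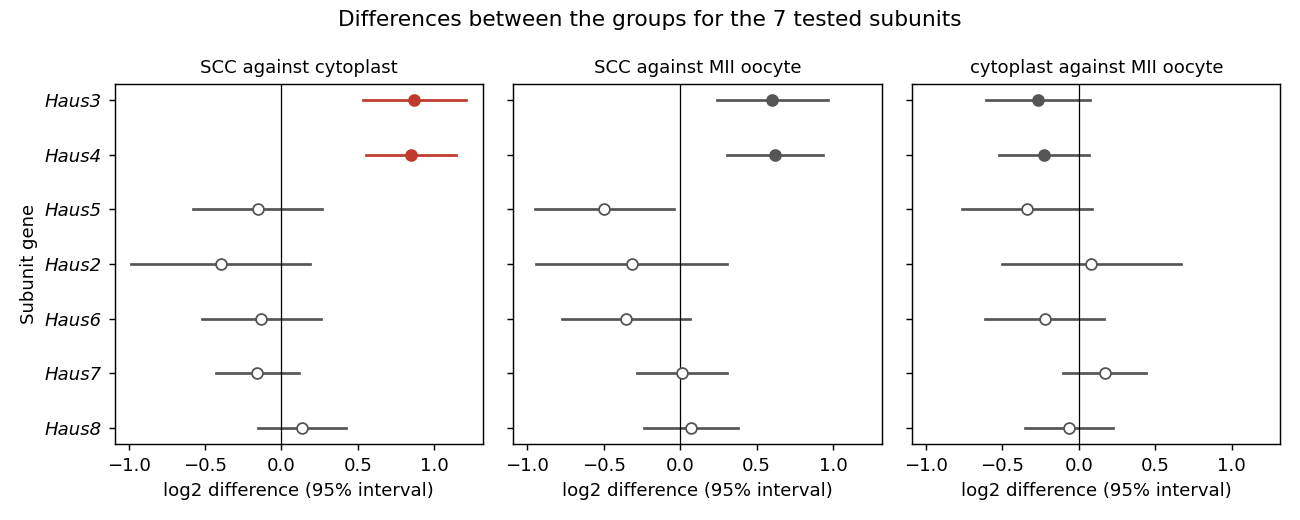
Log2 differences with 95% intervals for the 7 tested augmin genes in the 3 comparisons. Red marks an adjusted p under 0.05, and open circles mark genes below background in both groups. Haus3 and Haus4 pass between SCC and cytoplast (0.87 and 0.85). No member passes in the other comparisons.

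Haus3 and Haus4 ran together over the arrays, both between the groups and within them. Over the 10 arrays their log2 intensities had a Pearson r of 0.96. With each group's mean removed, r was 0.78. The MII oocyte arrays had the same order for both genes, with replicate 2 dimmest and replicate 4 brightest. Within the cytoplast, replicate 1 was the brightest and replicate 2 the dimmest for both. Within the SCC, replicate 1 was the dimmest for both, while replicate 2 was the brightest for Haus3 and replicate 3 for Haus4. Over the 21 pairs of the 7 tested members, r ran from -0.52 to 0.96 with a median of -0.16. In all pairs but that of Haus3 and Haus4 at least 1 gene was below background, and the arrays share their overall brightness.

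**Figure D4:**
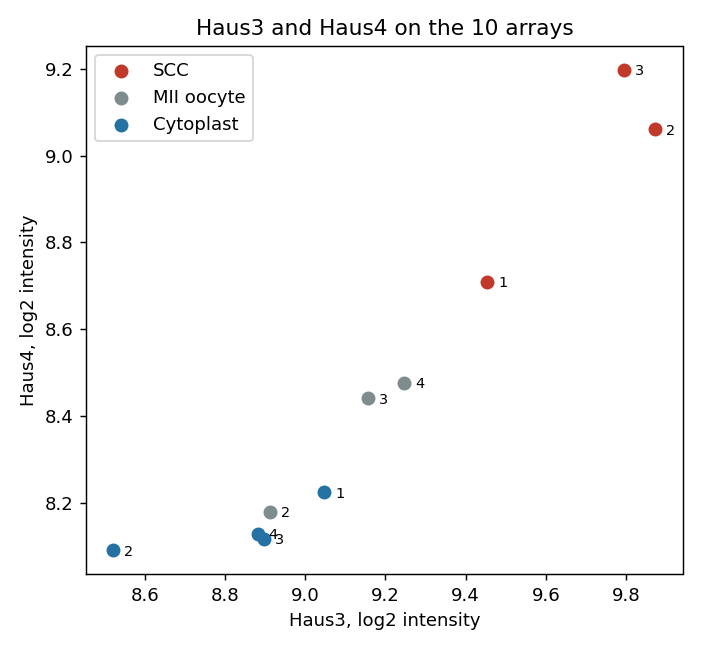
Log2 intensity of Haus4 against that of Haus3 on the 10 arrays, coloured by group and numbered by replicate. The SCC arrays occupy the upper right, the cytoplast arrays the lower left, and r over all arrays is 0.96.

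The remaining gene of tetramer III that was tested is Haus5. It read 28.5, 30.3 and 37.9 in the SCC, and 31.5, 33.9, 32.0 and 47.2 in the cytoplast. MII oocyte arrays read 40.7, 37.7 and 59.7. The groups overlapped, every value was below background, and neither comparison of the SCC passed (adjusted p = 0.733 against the cytoplast and 0.362 against the MII oocyte). Haus1 had a single probe set, which read 11.8 to 18.2 over all arrays, exceeded the array median on 2 of 10 arrays, and so was left out of the test by the filter on dim probe sets.

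Tetramer II showed no member above background. Haus6, whose protein contacts the adaptor Nedd1, read 20.6, 22.8 and 31.6 in the SCC, and 28.7, 28.1, 25.5 and 25.6 in the cytoplast, with the groups overlapping (log2 difference -0.13, 95% interval -0.52 to 0.26, adjusted p = 0.760). Its second probe set read 7.04 to 9.78 and was not tested. Haus8, whose protein binds microtubules, was dim as well: 46.8, 53.1 and 46.2 in the SCC, and 45.5, 41.2, 38.2 and 53.5 in the cytoplast (log2 difference 0.14, 95% interval -0.15 to 0.42, adjusted p = 0.649). Haus7, known as a partner of the deubiquitinase Uchl5, read 16.9 to 18.0 in the SCC and 17.6 to 22.2 in the cytoplast (adjusted p = 0.554).

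Haus2, known also as the centrosomal protein Cep27, had 4 probe sets, and their readings did not run together. The tested one read 20.5, 19.5 and 14.8 in the SCC, and 28.5, 18.5, 23.2 and 26.2 in the cytoplast (log2 difference -0.40, 95% interval -0.98 to 0.19, adjusted p = 0.466). On MII oocyte arrays it read 27.9, 31.0 and 13.2, the widest relative spread of any kept member within 1 group (coefficient of variation 39.5%). The other 3 probe sets of Haus2 stayed between 8.26 and 14.01 and below the median of every array. Their order of group means differed from one to the next. Intervals of all these dim genes describe the readings and set no limit on the change of the transcripts.

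Genes that work beside augmin gave a mixed picture. The gamma-tubulin ring complex, which augmin recruits, had 8 of its 10 listed genes tested. By limma 0 passed between SCC and cytoplast in either direction, where 8.02% of all genes were higher and 0.275% lower. At an unadjusted p under 0.05, 1 was higher (Tubgcp4, a ring subunit, log2 difference 0.44, adjusted p = 0.193) and 0 lower, where 18.4% of all genes were higher. The median log2 difference of these 8 was 0.20. Most of these 8, Tubg1 among them, were below background in both groups, so for those genes the arrays give no level clear of background. Nedd1, the adaptor between augmin and the ring, was well detected and nearly level, at 1264 ± 172 (SD, n = 3) for the SCC and 1161 ± 97.5 (SD, n = 4) for the cytoplast (log2 difference 0.12, 95% interval -0.15 to 0.39, adjusted p = 0.677). Its sign turned with cyclic loess (-0.16) and quantile normalization (-0.17). Tubg1, gamma-tubulin itself, was below background in both groups (adjusted p = 0.682). When the probe sets of a gene were averaged, 1 gene of the ring list, Mzt1, passed, where 7.92% of all genes were called higher.

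Of 25 other genes of spindle microtubule nucleation, the Ran cycle and the spindle poles, 5 were higher and 0 lower in the SCC, with a median log2 difference of 0.24. For comparison, 8.02% of all genes and 18.4% of the genes above background on every array of both groups were called higher. The list holds genes above and below background, so neither share matches it, and no excess is read from the count. At an unadjusted p under 0.05, 9 of the 25 were higher and 1 lower, where 18.4% of all genes were higher and 3.89% lower. Kpna2, the importin alpha that holds spindle factors inactive until Ran frees them, was 2.34-fold higher (log2 difference 1.23, SE 0.24, adjusted p = 0.0133). Ckap2, a microtubule nucleator, was 1.64-fold higher (adjusted p = 0.0188), and Pcm1 of the centriolar satellites was 1.63-fold higher (adjusted p = 0.0114) by its brightest probe set. Another 4 probe sets of Pcm1, all below background, did not pass. Cep192, a scaffold of microtubule organising centres, passed narrowly, at 116 ± 15.8 (SD, n = 3) for the SCC and 76.9 ± 12.4 (SD, n = 4) for the cytoplast (adjusted p = 0.0402). Only 1 of the 4 cytoplast arrays was above background for it, and it passed under 10 of 20 alternatives. Rcc1, which charges Ran at the chromosomes, passed (adjusted p = 0.0349) but was below background on all arrays of both groups. Tpx2, which acts with augmin in branching, did not pass (log2 difference -0.11, adjusted p = 0.907). The mean of its 4 kept probe sets gave a log2 difference of -1.15, which did not pass either (adjusted p = 0.135).

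The number of calls in this list moved with the settings. It was 1 after cyclic loess (Kpna2), 0 after quantile normalization, and 0 without SCC replicate 2 or without SCC replicate 3, settings whose shares of all probe sets called higher are given above. It was 3 without cytoplast replicate 1, where 2.41% of all probe sets were called higher, and 2 without cytoplast replicate 2, where 2.86% were. With the level of the spiked hybridisation controls as a covariate it was 8, and 11.7% of all probe sets were called higher. Against the MII oocyte 0 of these 25 genes and 0 of the 8 ring genes passed by limma. At an unadjusted p under 0.05, 6 and 0 were higher and 2 and 0 lower, where 9.45% of all genes were higher and 3.83% lower. Between the cytoplast and the MII oocyte 0 of either list passed by limma. At an unadjusted p under 0.05 there 0 genes of either list were higher, while 3 of the 25 and 1 of the 8 were lower, where 0.928% of all genes were higher and 3.75% lower.

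**Figure D5:**
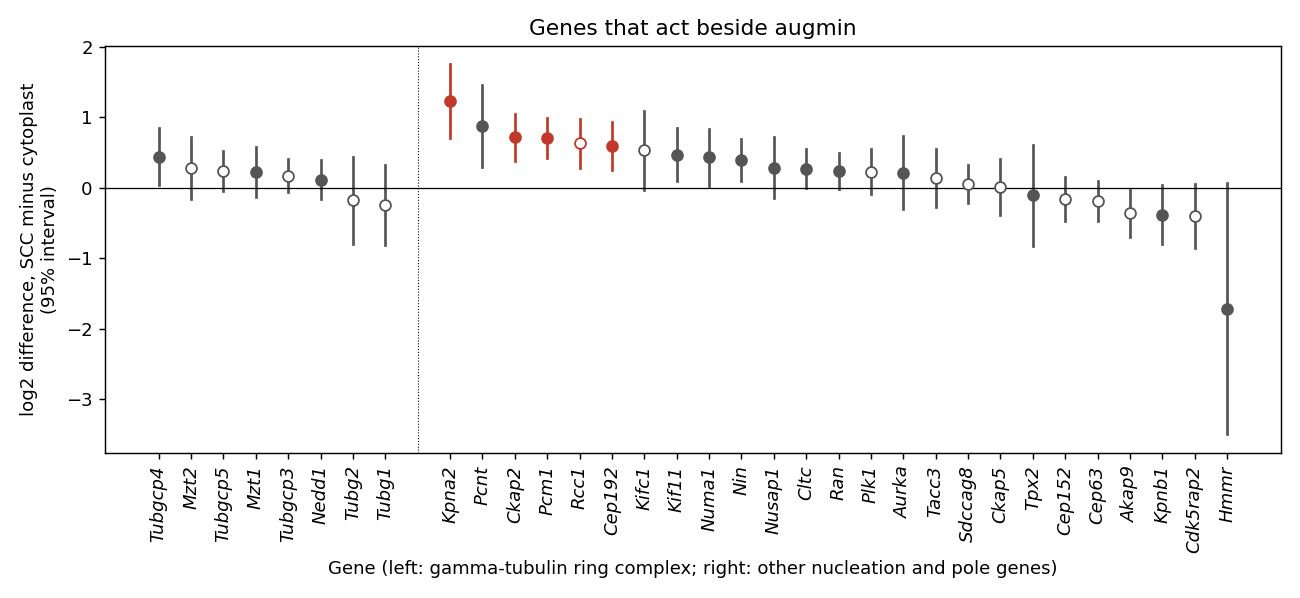
Log2 difference between SCC and cytoplast, with 95% intervals, for 8 genes of the gamma-tubulin ring complex (left) and 25 other nucleation and pole genes (right). Red marks an adjusted p under 0.05 and open circles genes below background in both groups. The 5 red genes are Kpna2, Ckap2, Pcm1, Rcc1 and Cep192, and no gene of the ring complex is red.

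The genes whose course over the 10 arrays was most like the mean of the 7 standardised augmin profiles were Shisal1 (r = 0.97), Hsf2bp (0.97), Shisa5 (0.97), Rps3 (0.96) and Bcl2l11 (0.96). That mean holds 5 genes below background, and none of those 5 neighbours passed between SCC and cytoplast (adjusted p from 0.423 to 0.698). Likeness to Haus3 and Haus4 alone, a measure chosen after the values were seen, gave other names: Slc30a4, a zinc transporter (r = 0.99), Nup37 of the nuclear pore (0.98), Mex3c, an RNA-binding ubiquitin ligase (0.98), the kinase Taok1 (0.98) and Tm7sf3 (0.98). All 5 were above background on all 10 arrays. Slc30a4 had a mean intensity of 675 in the SCC, 426 in the MII oocyte and 372 in the cytoplast (log2 difference of SCC from cytoplast 0.86, adjusted p = 0.0109), the same order as the 2 augmin genes. Mex3c was at 1077, 563 and 407 (log2 difference 1.40, adjusted p = 0.00376). Nup37 had a log2 difference of 0.35 and did not pass (adjusted p = 0.0751). The arrays of a group share their overall brightness, so these values of r are descriptions. The 5 genes likest Haus3 and Haus4 were picked by a course that is highest in the SCC and lowest in the cytoplast. Their order of groups and their adjusted p follow largely from that choice and are descriptions too.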

How the data were processed

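The authors deposited linear intensity values of 45101 probe sets on 10 arrays, made with RMA per the submitters' processing notes. Its settings and version, and the genome build, were not given in the sources used here. Per the labels' protocols, at most 50 ng of RNA was amplified in 2 rounds and 10 µg of labelled cRNA went onto an array. Values are therefore relative amounts within a sample. Log2 was taken of the deposited values. Their 95th percentile ran from 521 (cytoplast replicate 2) to 788 (SCC replicate 3), so the arrays did not share one distribution of values. The main fit used them without further normalization between arrays. Cyclic loess and quantile normalization were run as alternatives.

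The platform annotation gave 1 gene to 34945 probe sets, several to 932 and none to 9160 (64 were controls). By gene ID, 34741 of the single-gene probe sets matched RefSeq. Probe sets above the array median on at least 3 arrays were kept (23739). A gene was represented by its kept single-gene probe set of highest mean (12714 genes). The 7 kept members were each gene's only kept probe set.

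Differences were fitted with limma 3.58.1 in R 4.3.3, as group means over the 10 arrays with default eBayes moderation. P-values were Benjamini-Hochberg adjusted over all kept probe sets, with a threshold of 0.05. The fit was tested on simulated data. A fold is given only where both groups had an array above background. The precision is limited by the number of arrays. Arrays with the same replicate number had residuals that correlated between -0.30 and 0.61 over 8 pairs (mean 0.021). These values do not settle whether the numbers mark pairs, and the labels do not say. The arrays were not paired in the main fit, and a fit with the number as a block is given below.

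Named genes were all members, the genes of the ring and nucleation lists that passed, Tubg1, Nedd1 and Tpx2, and the 5 genes of course most similar to the mean of the members. Tubgcp4, Mzt1 and Hmmr, which did not pass in the main fit, were added after their values were seen. So were the 5 genes likest Haus3 and Haus4 alone. The members and lists were chosen with earlier results of these data known.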

Additional observations from a re-analysis of the deposited data

Results flagged for a closer look

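In 2 augmin genes 1 cytoplast array lay far from the other 3, by Dixon's criterion for groups of 4, which flags about 1 group in 20 by chance. Haus1 read 18.2 on cytoplast replicate 4 and 11.8 to 12.2 on the others, so that the gap took up 0.936 of the range. Haus5 read 47.2 on cytoplast replicate 4 and 31.5 to 33.9 on the others, a gap of 0.849 of the range. Both genes were below background on all arrays. 12 probe sets were examined in this way.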

How the results depend on the processing

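The count of 2 members called between SCC and cytoplast was 1 after quantile normalization and ran from 1 to 2 when single arrays were left out (1 without SCC replicate 2 or without SCC replicate 3), Haus4 being the one that passed. Haus4 passed under all 20 alternatives (log2 difference 0.55 to 0.99, adjusted p from 0.00294 to 0.0458) and Haus3 under 17 of 20 (0.56 to 0.997, adjusted p from 0.0044 to 0.0658). In the other comparisons 0 members passed under any alternative. With the replicate number as a block the count stayed at 2 (Haus3 log2 difference 0.90, Haus4 0.87) and no call of a member changed. With that block 7.73% of all probe sets were called higher between SCC and cytoplast. Signs turned for differences that passed nowhere: Nedd1 (-0.16 after cyclic loess, -0.17 after quantile normalization), Tpx2 (0.0721 with the block, -0.25 to 0.12 with single arrays left out, but -0.39 after cyclic loess, -0.40 after quantile normalization and -1.15 as the mean of its probe sets), Haus2 between cytoplast and MII oocyte (-0.013 with the block, -0.30 to 0.31), Haus7 between SCC and MII oocyte (-0.0913 to 0.0992) and Haus8 between cytoplast and MII oocyte (-0.16 to 0.0055). The cause was not tested. The stricter filter left 3 members (Haus3, Haus4 and Haus8) and gives no value for the others. Signal over background limits the report to Haus3 and Haus4.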
